A study of Mus musculus with 2 samples.

Results

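Lyz1-high AE2 cells are the alveolar epithelial type II (AE2) cells of control mouse lungs with the most Lyz1 transcript. They were chosen by their measured Lyz1 level: the top quartile of Lyz1 per 10000 unique molecular identifiers (UMIs, each standing for 1 captured transcript), taken over the pool of the 4 control tables. This gave 1013 of 4050 AE2 cells, among 7038 barcodes of control lungs and 14048 barcodes in all. An AE2 cell was a barcode with at least 500 genes, at most 20% mitochondrial UMIs, at least 1% of its UMIs from Sftpc, at least 3 of the 6 genes Lamp3, Abca3, Slc34a2, Napsa, Lpcat1 and Etv5 detected, and no Ptprc, the pan-leukocyte antigen CD45. Because Lyz1 chose the cells, its values are a description with no test, and so are those of the genes that chose AE2 cells.

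The control groups were saline-treated C57BL/6JRj mice of 3 months (young control) and of 18 months (old control). The other 2 groups had received lipopolysaccharide (LPS), a bacterial cell wall component, at 2.5 mg/kg for 24 h at the same ages (young LPS and old LPS). All lungs were lavaged, digested with dispase and sorted for the epithelial surface protein EpCAM without dead cells. Cells of each group were marked with a separate hashtag antibody before all 4 were mixed in equal number and loaded on 1 droplet lane. The labels state that this was done as 2 independent biological replicate experiments, with 1 lane each. Each group therefore has 2 tables, numbered by lane, which are separate biological replicates. The labels used here do not say how many mice a table holds, so cells of separate mice cannot be told apart. P-values of age therefore measure the spread between 2 replicate experiments, not between single mice. Where Lyz1-high cells are set against other AE2 cells, the table is a block. P-values there measure how the ratio of these classes varies over 4 tables, and both classes of a table come from the same mice. The control tables held 743 (young control 1), 1146 (young control 2), 1063 (old control 1) and 1098 (old control 2) AE2 cells. Table totals were 6228266 to 10694651 UMIs in controls. In Lyz1-high cells, the median share of the most abundant hashtag was 98.8% to 99.4%. Young control 1 and young control 2 shared 1 barcode sequence, which comes from separate lanes, and tables of the same lane shared 0.

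AE2 cells make and recycle pulmonary surfactant in lamellar bodies, which are related to lysosomes, and they are progenitors of the flat type I cells. Lysozymes are secreted enzymes that cut the peptidoglycan of bacterial cell walls. Mice carry a pair of neighbouring lysozyme genes. Lyz2, the M type, is abundant in macrophages and AE2 cells, and Lyz1, the P type, is best known from Paneth cells of the small intestine. Pla2g1b, the second gene proposed as a mark of these cells, encodes a secreted phospholipase A2 known from the pancreas.

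In GENCODE M21 (GRCm38), Lyz1 lies at chr10:117287797-117292868 and Lyz2 at chr10:117277331-117282321, both protein coding and on the minus strand, with 5475 bases between them. Their upstream regions are shown because the results turn on these 2 genes. Over the 250 bases before the RefSeq starts (GRCm38.p6), 200 of 252 alignment columns were identical (79.4%). The 50 bases next to the start were identical in both genes; they are annotated as exon of Lyz2 in GENCODE and are not printed. The remaining 200 bases of each window are given below, 5′ to 3′ on the minus strand. Capitals mark the 3 aligned runs of at least 12 identical bases. The Lyz1 window is chr10:117292919-117293118 and the Lyz2 window is chr10:117282323-117282522.
Lyz1: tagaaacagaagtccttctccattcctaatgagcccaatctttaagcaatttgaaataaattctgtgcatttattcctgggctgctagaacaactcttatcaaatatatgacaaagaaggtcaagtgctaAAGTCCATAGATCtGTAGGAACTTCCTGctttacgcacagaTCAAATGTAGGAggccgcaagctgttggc
Lyz2: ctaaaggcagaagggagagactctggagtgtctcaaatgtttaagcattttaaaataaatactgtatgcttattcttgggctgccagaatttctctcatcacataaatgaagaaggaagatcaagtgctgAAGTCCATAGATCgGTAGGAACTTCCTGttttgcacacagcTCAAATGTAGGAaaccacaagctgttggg
The transcripts are also alike. Of the 50-base windows in the last 500 bases of the Lyz1 transcript, 17.7% occur unchanged in the Lyz2 transcript, and 16.9% the other way. How reads that match both genes were counted is not given in the sources used here, so counts of the pair are uncertain where reads fall in those windows.

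Lyz1 had 2 modes among AE2 cells. No Lyz1 UMI was found in 2753 of them (68.0%), and the cells with Lyz1 fell into a group with 1 or 2 UMIs and a group with many more. The quartile threshold came to 1.491 Lyz1 UMIs per 10000, where the lowest cell inside had 1.491 and the highest cell outside had 1.49. It therefore runs through the lower group and divides cells with 1 or 2 Lyz1 UMIs by depth, the shallower cells falling inside. Of the 1013 Lyz1-high cells, 312 held 1 Lyz1 UMI, 95 held 2, and 427 (42.2%) held 3 or fewer. By contrast, 537 cells (53.0%) had at least 10 per 10000, with a median of 130 per 10000 or 81 UMIs. These 537 cells were 13.3% of all AE2 cells and held 98.0% of the 54320 Lyz1 UMIs in AE2 cells. Few cells lay between the modes, 100 from 5 to 20 per 10000, and 322 had 100 or more. A cut at 10 per 10000 was added after this distribution was seen, and its values are given beside those of the quartile.

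**Figure D1:**
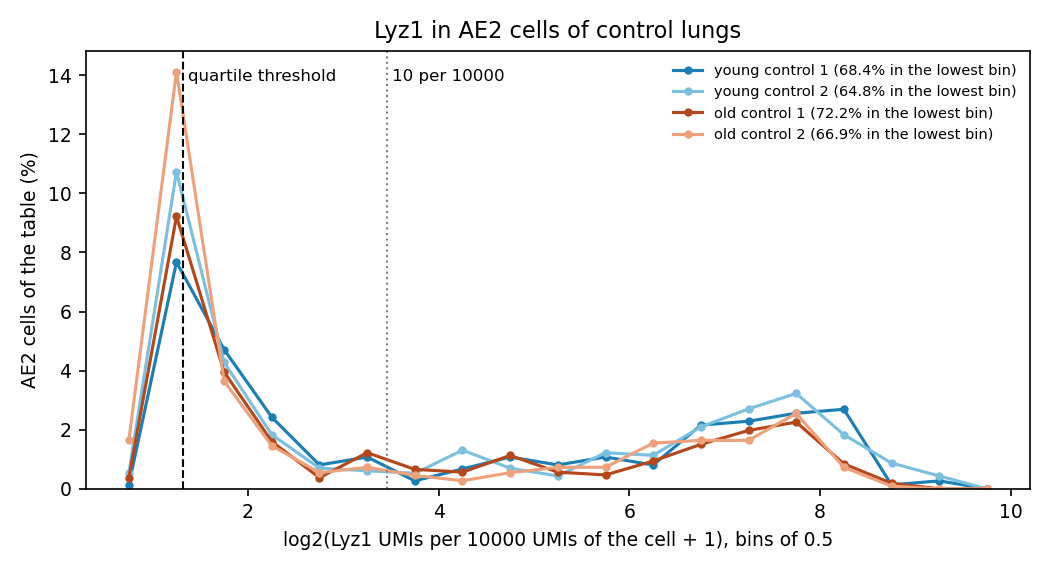
Share of AE2 cells (%) in bins of 0.5 of log2(Lyz1 UMIs per 10000 UMIs + 1), 1 line per control table, with the lowest bin, which holds the cells with no Lyz1 UMI, given in the legend. The dashed line is the quartile threshold and the dotted line is 10 per 10000; in each of the 4 tables a second mode lies near 100 to 300 per 10000, to the right of the dotted line.

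Barcodes of another cell type reached the lower mode of Lyz1. The part of free RNA in the suspension, or of reads that match both lysozyme genes, in their Lyz1 UMIs was not tested. Ciliated barcodes, which should lack Lyz1, had a Lyz1 UMI in 31 of 376 cases (8.24%, exact 95% interval 5.67% to 11.5%), at a median depth of 4977 UMIs against 6333 in AE2 cells. In AE2 cells the share was 1297 of 4050 (32.0%, 30.6% to 33.5%). Of the ciliated barcodes, 28 (7.45%) were over the quartile threshold, and the highest reached 5.45 per 10000. None of the 376 reached 10 per 10000, which allows a share of up to 0.798%. The share of cells with a Lyz1 UMI was thus above this background in AE2 cells, but a single cell with 1 or 2 Lyz1 UMIs cannot be told apart from it. B cell barcodes, at a median depth of 1210 UMIs, had a Lyz1 UMI in 0 of 10 cases (exact 95% interval 0% to 30.8%). Intervals and limits cover counting error only.

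The share of Lyz1-high cells per table was 26.92% in young control 1 (200 of 743, exact 95% interval 23.8% to 30.3%) and 27.92% in young control 2 (320 of 1146, 25.3% to 30.6%). It was 23.89% in old control 1 (254 of 1063, 21.4% to 26.6%) and 21.77% in old control 2 (239 of 1098, 19.4% to 24.3%). Both old tables were below both young tables. The means were 27.4% ± 0.707 (SD, n = 2) in young and 22.8% ± 1.5 (SD, n = 2) in old mice, a difference of -4.59 percentage points. The exact two-sided permutation test over tables gave p = 0.333, the smallest that 2 against 2 tables allow, so the design cannot reach 0.05. At the cut of 10 per 10000 the shares were 14.8% and 16.49% in young and 11.1% and 10.93% in old tables, a difference of -4.63 points (exact permutation p = 0.333). With any Lyz1 UMI as the cut the groups overlapped: 31.63% and 35.17% in young, 27.85% and 33.06% in old tables (exact permutation p = 0.667). In the LPS tables the share of AE2 cells over the control threshold was 18.85% and 15.91% in young and 13.97% and 19.61% in old mice, each below the share of all 4 control tables. At 10 per 10000 the LPS shares were 12.48%, 8.495%, 8.17% and 10.98% in the same order, which overlap those of the old control tables. The UMIs against which Lyz1 is counted differ between treatments: Lcn2 alone stood at 61800 to 89100 CPM (counts scaled to a fixed library total) in the other AE2 cells of LPS tables, against 2200 to 2480 in controls. The part of this in the LPS shares was not tested.

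**Figure D2:**
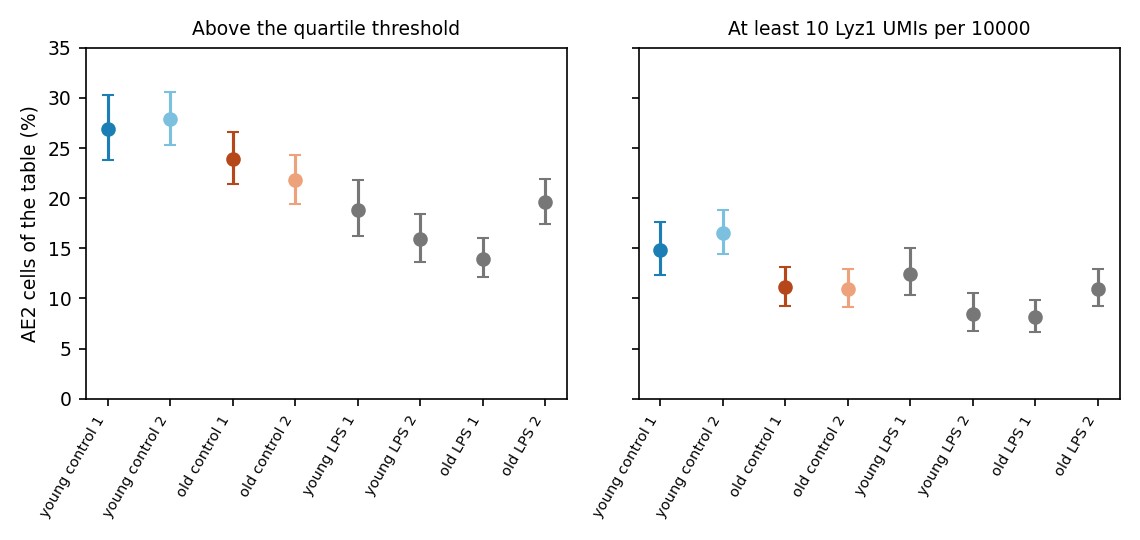
Share of AE2 cells (%) over the control quartile threshold (left) and with at least 10 Lyz1 UMIs per 10000 (right), 1 point per table with its exact 95% binomial interval, coloured in controls and grey after LPS. The old control tables, at 23.89% and 21.77%, lie below the young control tables, at 26.92% and 27.92%, in the left panel.

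Few genes other than Lyz1 differed between Lyz1-high cells and the other AE2 cells of the same table. Of 9291 genes tested, 4 differed (0.0431%): Lyz2, Cyp2f2 and Lrg1 were lower and Saa3 was higher. The test was edgeR's quasi-likelihood test on UMIs summed per table and class, with the table as a block and Benjamini-Hochberg adjustment over all genes at 0.05. Without adjustment, 453 genes had p under 0.05. At 10 per 10000, 3 of 9217 genes differed (0.0325%): Lyz2 and Cyp2f2 were lower and Lcn2 was higher. DESeq2 called 1 gene with the quartile, Lyz2, and 2 with the cut at 10, Lyz2 and Lcn2. Without the table block the counts were 0 and 1, the 1 being Lyz2. The fit with the table block bounded most differences. With the quartile, 4512 genes had at least 20 CPM (scaled with TMM and without Lyz1). Of these, 98.9% had an interval of 2 standard errors (SE) that stayed within 1.5-fold in either direction. At the cut of 10 this held for 94.6% of 4526 genes, with a median SE of 0.131 against 0.103. Without the block SEs can be larger: that of Lyz2 with the quartile was 0.061 against 0.018. The quartile class also holds cells with 1 or 2 Lyz1 UMIs, so its intervals bound a mixed class.

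Lyz2 was the main difference. In the quartile cells its CPM was 32300 (young control 1), 33300 (young control 2), 30900 (old control 1) and 34200 (old control 2), against 41400, 43400, 36800 and 39900 in the other AE2 cells of those tables. Each of the 4 tables was lower in Lyz1-high cells, and the 2 sets of values do not overlap. The log2 fold change was -0.30 ± 0.018 (SE; edgeR adjusted p = 9.41e-34). With the cut at 10 per 10000 the CPM values were 26100, 29200, 26800 and 31100 in the same order against 41200, 43000, 36600 and 39700, and the log2 fold change was -0.50 ± 0.037 (edgeR adjusted p = 3.94e-07). The members under 10 per 10000, set against the cells that are not members, gave -0.07 (edgeR adjusted p = 0.338). Very small p-values here rest on a spread shared over genes with 3 residual degrees of freedom. They are unstable: the adjusted p of Lyz2 was 0.338 without the table block, 0.926 with the quartile taken within each table, at -0.31, and 0.407 with the cut at 10 and without old control 1, at -0.53. The log2 fold change stayed negative in every setting that holds the gene, from -0.58 to -0.07.

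In each table, Lyz2 was lower in the bands with at least 10 Lyz1 UMIs per 10000 than in cells without Lyz1. No band with fewer Lyz1 UMIs was lower in each table. The median Lyz2 level in cells without Lyz1 was 364 UMIs per 10000 in young control 1, 408 in young control 2, 349 in old control 1 and 380 in old control 2. In the 476 members from the threshold to 10 it was 375, 411, 335 and 369 in the same order, above the cells without Lyz1 in both young tables and below them in both old tables. In cells with 10 to 100 Lyz1 UMIs per 10000 it was 257, 324, 290 and 341 in the same order. In cells with 100 or more it was 233, 242, 220 and 249, below the cells without Lyz1 in each table. The 284 cells with Lyz1 below the threshold had the highest Lyz2 median of the bands in each table (446, 462, 384 and 416). None of these cells held more than 2 Lyz1 UMIs, so a high total of UMIs placed them below the threshold. Their band also had the highest mean Sftpc, 258000 CPM against 228000 to 237000 in the other bands. The part of depth in this Lyz2 peak was not tested.

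The sum of both lysozymes was not lower in the highest band. In cells with 100 or more Lyz1 UMIs per 10000 the median of Lyz1 plus Lyz2 was 469 in young control 1, 469 in young control 2, 419 in old control 1 and 444 in old control 2, above the median Lyz2 of cells without Lyz1 in each table. At 10 to 100 it was 291, 387, 328 and 404, below that median in 3 of 4 tables. Because Lyz1 chose the cells, these sums are a description. Within the highest band alone, Lyz1 made up a median of 47.1%, 47.8%, 47.4% and 43.6% of both. UMI counts are not divided by transcript length, which is 1263 bases for Lyz1 and 1316 for Lyz2 in GENCODE M21. Over the 537 cells with at least 10 per 10000, the share of Lyz1 in both varied widely, with a median of 39.0% in young control 1, 38.6% in young control 2, 33.4% in old control 1 and 28.9% in old control 2. It was 0% to 10% in 83 cells, 10% to 20% in 78, 20% to 30% in 68 and 30% to 40% in 71, which together are more cells than those above 40%. The fullest bin was 40% to 50% (112 cells), followed by 50% to 60% (85 cells). It was 60% to 70% in 21 cells, 70% to 80% in 4, 80% to 90% in 9 and 90% to 100% in 6. Within these cells, Spearman's rho of Lyz1 and Lyz2 over cells was 0.014 in young control 1 (110 cells), -0.26 in young control 2 (189), -0.30 in old control 1 (118) and -0.36 in old control 2 (120). The points share a denominator and a library, and the values are a description.

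**Figure D3:**
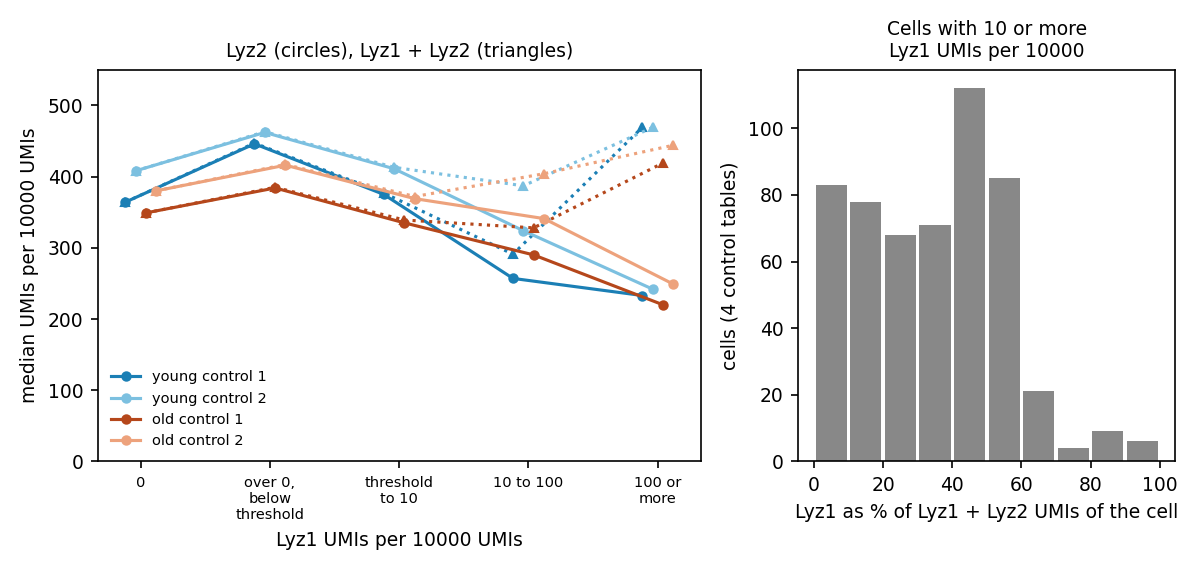
Left, median UMIs per 10000 of Lyz2 (circles, solid) and of Lyz1 plus Lyz2 (triangles, dotted) by band of Lyz1 per 10000, 1 line per control table; Lyz2 falls to 220 to 249 in the highest band while the sum lies at 419 to 469. Right, number of cells with at least 10 Lyz1 UMIs per 10000 by the share of Lyz1 in both lysozymes (%), pooled over the 4 tables, spread from 83 cells below 10% to a maximum of 112 cells at 40% to 50%.

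Lyz2 was also lower in Lyz1-high cells of the LPS tables, which the rule did not use. It was called with the quartile and with the cut at 10. Alternative settings were run there for the quartile only, so how firm the 2 calls are cannot be compared. The quartile of the LPS pool gave 1 called gene of 9722 (0.0103%), Lyz2, at -0.10 ± 0.019 (edgeR adjusted p = 0.0129). That quartile starts at 0.958 Lyz1 UMIs per 10000. The quartile call of Lyz2 was lost in 5 of the 6 other quartile settings: without the table block (-0.10, edgeR adjusted p = 1), with the control threshold (-0.27, 0.618), without young LPS 1 (-0.10, 0.52), without young LPS 2 (-0.09, 0.321) and without old LPS 1 (-0.10, 0.298). It was kept without old LPS 2 (-0.13, edgeR adjusted p = 2.67e-17), and the log2 fold change was negative in each. With the cut at 10 per 10000, Lyz2 CPM was 22300 (young LPS 1), 18500 (young LPS 2), 12300 (old LPS 1) and 19800 (old LPS 2), against 28900, 28200, 17600 and 25800 in the other AE2 cells. Each table was lower, and the log2 fold change was -0.47 ± 0.031 (edgeR adjusted p = 1.63e-08). Of 9506 genes, 2 were called at that cut (0.021%), Lyz2 and Fgg, which encodes the gamma chain of fibrinogen and had a log2 fold change of -1.31. In AE2 cells with 100 or more Lyz1 UMIs per 10000, Lyz1 was 48.3% and 47.8% of both lysozymes in young LPS 1 and 2, and 60.6% and 40.1% in old LPS 1 and 2. The band of old LPS 1 holds 14 cells. Cyp2f2, Lrg1, Saa3 and Lcn2 were not called in the LPS tables at either cut. Their log2 fold changes there with the quartile were 0.10, -0.06, -0.07 and -0.06. At the cut of 10, Cyp2f2 was at -0.52 ± 0.196 (edgeR adjusted p = 0.991), beside -0.57 ± 0.107 in controls, while Lrg1, Saa3 and Lcn2 were at 0.00, -0.01 and 0.00. Whether these differences depend on LPS was not tested.

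The other called genes were small or rested on few cells. Cyp2f2, a cytochrome P450 of club cells, had a CPM of 50.3 (young control 1), 37.4 (young control 2), 82.3 (old control 1) and 64.7 (old control 2) in Lyz1-high cells, against 95.8, 59.1, 91.5 and 99.6. It was lower in each table, at -0.54 ± 0.084 with the quartile and -0.57 ± 0.107 with the cut at 10 (edgeR adjusted p = 2.16e-06 and 0.00299). Single cells weigh in this gene. In young control 1, 1 cell that was not a member held 75 of the 288 Cyp2f2 UMIs (26.0%), and in old control 2, 1 held 136 of 618 (22.0%). Without the highest cell of each class the log2 ratios were -0.62, -0.61, -0.21 and -0.43 in young control 1, young control 2, old control 1 and old control 2.

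Of the 10 club and secretory markers, Cyp2f2 was the 1 called among 9 tested. Their summed CPM was 3820 to 7780 in Lyz1-high cells and 4830 to 8950 in the others; its part in the Cyp2f2 result was not tested. Cyp2f2 lost its call without cells that hold a rare marker of another class, at -0.42 (edgeR adjusted p = 0.179), without the 5% deepest cells, at -0.37 (0.144), and with cells thinned to 2000 UMIs, at -0.23 (0.978). It was also not called without the table block, at -0.56 (edgeR adjusted p = 1), by DESeq2, at -0.57 (0.912), or with the top 10% as the cut, at -0.44 (0.299). Its log2 fold change was negative in each of these settings.

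Saa3, an acute phase serum amyloid A, had a CPM of 133 (young control 1), 72.8 (young control 2), 81 (old control 1) and 119 (old control 2) against 76.8, 70.4, 61.5 and 73.7, a log2 fold change of 0.48 ± 0.078 (edgeR adjusted p = 1.76e-05). In young control 1 a single Lyz1-high cell held 81 of the 148 Saa3 UMIs (54.7%), and in old control 2 a single cell held 61 of 200 (30.5%). Without the highest cell of each class the log2 ratios ran from 0 to 0.30. With the cut at 10 per 10000 the gene was not called (0.40 ± 0.300, edgeR adjusted p = 0.993).

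Lrg1, a secreted leucine-rich glycoprotein of the acute phase, was lower in each table by a small step: 615, 815, 402 and 580 CPM in young control 1, young control 2, old control 1 and old control 2, against 686, 913, 477 and 665. The log2 fold change was -0.19 ± 0.032 (edgeR adjusted p = 2.52e-05). It was 0.00 in cells thinned to 2000 UMIs and 0.02 with any Lyz1 UMI as the cut, so the difference and its direction were lost there (edgeR adjusted p = 1 in both). It was -0.09 with the cut at 10, with no call (edgeR adjusted p = 0.993), and -0.27 in the members under 10 per 10000 against non-members (edgeR adjusted p = 0.000899). In that comparison 3 of 8721 genes were called (0.0344%), all lower: Lrg1, Gm42418 and Malat1, a nuclear long non-coding RNA. With the quartile taken within bins of depth, Lrg1 was at -0.14 (edgeR adjusted p = 0.0409). By band, its mean CPM was 656 without Lyz1, 863 below the threshold and 563 from the threshold to 10. At 10 to 100 it was 653, and at 100 or more 612. The bands furthest apart thus lie on either side of the threshold, which divides cells with 1 or 2 Lyz1 UMIs by depth.

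Lcn2, the siderophore-binding lipocalin that withholds iron from bacteria, was called at the cut of 10 and not with the quartile. Its CPM at that cut was 2780, 2540, 2870 and 2710 against 2270, 2440, 2380 and 2220 in the table order used for Lrg1. It was higher in each table, at 0.23 ± 0.034 (edgeR adjusted p = 1.22e-05), against 0.18 ± 0.086 with the quartile (edgeR adjusted p = 0.998). In old control 1 a single cell held 470 of 2118 Lcn2 UMIs (22.2%), and without the highest cells the ratio of that table was -0.01. At the cut of 10 it was not called without the table block, at 0.23 (edgeR adjusted p = 1), or in cells thinned to 2000 UMIs, at 0.13 (0.788). With the quartile it was called when thinned to 2000 UMIs, at 0.18 (edgeR adjusted p = 0.000274), with the quartile taken within bins of depth, at 0.19 (0.0265), and without young control 2, at 0.26 (7.94e-10). With any Lyz1 UMI as the cut it was called at 0.26 (edgeR adjusted p = 5.53e-08). The log2 fold change of Lcn2 was thus above 0 in each of these settings, and the call came and went. With the quartile, the log2 ratio of young control 2 alone was -0.07. Mean Lcn2 CPM did not rise steadily over the bands. It was 2210 without Lyz1, 2780 below the threshold and 2450 from the threshold to 10. It was 3010 at 10 to 100 and 2480 at 100 or more. Lcn2, Fgg, Gm42418 and Malat1 are named after their values were seen.

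**Figure D4:**
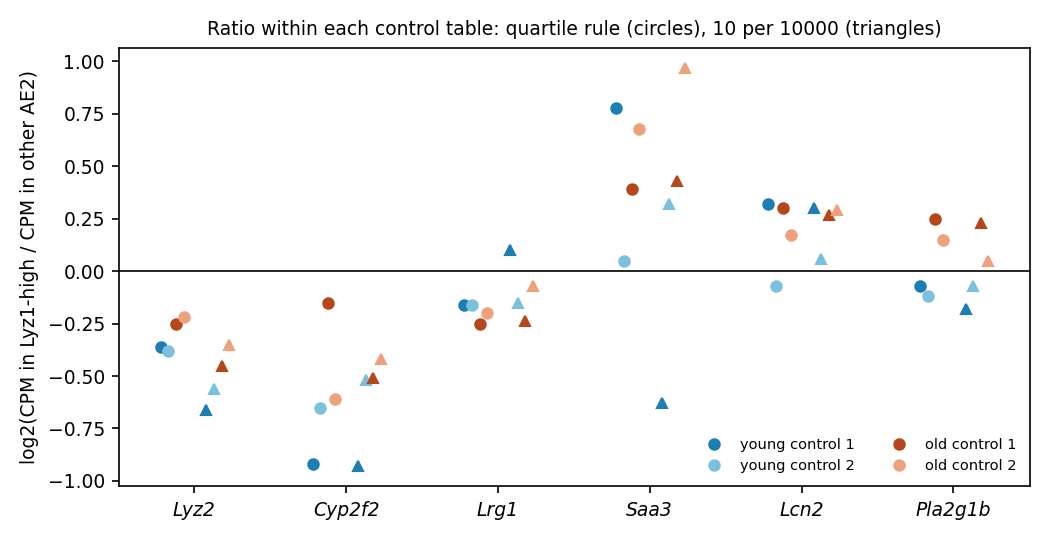
Log2 ratio of CPM in Lyz1-high cells to CPM in the other AE2 cells of the same control table, for 6 genes, 1 point per table, with the quartile rule (circles) and the cut at 10 per 10000 (triangles). Lyz2 is below 0 in all 4 tables under both, from -0.22 to -0.66, while Pla2g1b lies on both sides of 0.

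Pla2g1b did not set these cells apart. Its CPM was 273 (young control 1), 237 (young control 2), 257 (old control 1) and 234 (old control 2) in Lyz1-high cells, against 287, 257, 217 and 210. It was lower in the young and higher in the old tables, and the log2 fold change was 0.05 ± 0.046 (edgeR adjusted p = 0.998). It was 0.01 ± 0.061 at 10 per 10000. In cells thinned to 2000 UMIs, which left out 7 of the 1013 Lyz1-high cells and 49 AE2 cells in all, 39.6%, 33.1%, 43.7% and 38.2% of Lyz1-high cells had a Pla2g1b UMI, against 40.0%, 37.4%, 34.1% and 30.0%; unthinned shares were 67.5% to 71.7% and 64.7% to 70.9%. The label names Pla2g1b as a mark of these cells, and these data go against that part of it.

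The AE2 identity genes had nearly equal levels in both classes. Sftpc, the surfactant protein C that also chose AE2 cells, had a mean of 233000 CPM ± 15300 (SD, n = 4) in Lyz1-high cells and 238000 ± 19100 in the others. Lamp3, of lamellar bodies, stood at 1420 ± 67.7 against 1370 ± 79.7, and Etv5, the transcription factor of AE2 maintenance, at 374 ± 31.6 against 353 ± 23.3. Within tables the small differences had 1 sign: the log2 ratio ran from -0.06 to -0.01 for Sftpc, from 0.02 to 0.09 for Lamp3 and from 0.02 to 0.12 for Etv5. At the cut of 10, Lamp3 was again higher in each table, while Sftpc and Etv5 lay on both sides of 0. Of the 19 surfactant and lamellar body genes tested, none was called, with a median log2 fold change of 0.00 beside 0.00 over all genes.

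Pathway lists had 0 called members in 22 of 24, where 4 of 9291 genes (0.0431%) were called over all. At so low a share most lists would hold no call, so this count says little and medians are given. The 82 cytosolic ribosomal protein genes had a median of -0.02, the 77 nuclear oxidative phosphorylation genes -0.01, the 23 cholesterol synthesis genes -0.02 and the 25 fatty acid and phospholipid synthesis genes 0.02. The 37 genes of the secretory pathway and protein folding had a median of 0.01, and the 29 lysosomal hydrolases and membrane proteins 0.00. Among 16 secreted antimicrobial and host defence genes the 2 called, both lower, were Lyz2 and Lrg1, with a list median of 0.04. The 1 called of 12 xenobiotic metabolism genes was Cyp2f2. The highest median was that of 11 cell cycle genes, 0.16, with 10 above 0 and none called.

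Markers of other cell types differed in level, and Cyp2f2 was the 1 called between the classes. The club and secretory markers, given above, were the most abundant of these lists, at 3820 to 7780 CPM in Lyz1-high cells. The 13 AE1 markers summed to 1560 to 1940 CPM in Lyz1-high cells and 1630 to 2010 in the others. The 14 alveolar macrophage markers, which matter because macrophages express lysozymes, summed to 28.3 to 36.8 CPM against 21.3 to 47.6, and Ear1 and Siglecf were at 0 in Lyz1-high cells of all tables. Of the 10 monocyte and macrophage markers, C1qa, C1qb, C1qc, Ms4a7 and Fcgr1 were at 0 there, and the list summed to 26.6 to 47.5 CPM against 20.1 to 45.5. The 7 goblet markers summed to 2.95 to 7.19 CPM, with Muc5ac and Tff2 at 0. Median depth in Lyz1-high cells was 5623 (young control 1), 6240 (young control 2), 5854 (old control 1) and 6511 (old control 2) UMIs per cell. In the others it was 5776, 6691, 5819 and 7270, so Lyz1-high cells were shallower except in old control 1. Members from the threshold to 10 were shallower than the others in each table, at 5380, 5873, 5768 and 6405. Mitochondrial medians were 6.89% to 7.95% in Lyz1-high cells and 6.83% to 8.17% in the others.

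Age was not used by the rule and was tested within Lyz1-high cells. Of 8411 genes, 78 differed between old and young control tables (0.927%), 30 higher (0.357%) and 48 lower (0.571%) in old mice, by edgeR's quasi-likelihood test with 2 residual degrees of freedom. All 78 had the same sign in both lanes. The lanes are the replicates that the test used, so a shared sign or age groups that do not overlap add no separate support. Each age has 2 tables, 1 from each replicate experiment, and SDs and p-values measure the spread between these. The count at 10 per 10000 was 67 of 6467 (1.04%), of which 49 were also among the 78. Lyz2 was not among them (-0.01 ± 0.08, edgeR adjusted p = 0.983), nor was Pla2g1b (-0.04 ± 0.10, 0.945). The count was 139 with the lane as a replicate block, 14 by DESeq2, and 8 without young control 2, 24 without young control 1, 44 without old control 1 and 106 without old control 2.

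Part of the MHC class I genes, which present peptides to cytotoxic T cells, were higher in old mice. Of 17 MHC class I and peptide loading genes, 4 rose and none fell, with a median of 0.21 beside 0.00 over all genes, of which 0.357% rose. B2m, the invariant light chain of class I, stood at 177 (young control 1), 200 (young control 2), 376 (old control 1) and 347 (old control 2) CPM in Lyz1-high cells, a log2 fold change of 0.92 ± 0.10 (edgeR adjusted p = 5.44e-08). Its 2 age groups do not overlap. The heavy chain gene H2-K1 rose from a mean of 796 ± 12.6 to 1150 ± 52.2 CPM (SD, n = 2 each). H2-Q7 was at 12.6, 18.7, 75.9 and 52.8 CPM in the order given for B2m, and H2-Q6 rose by 1.59. These 2 belong to a family of near-identical genes, so the split of reads between them is uncertain. At the cut of 10, B2m and H2-Q7 were called again, at 0.79 and 1.85 (edgeR adjusted p = 3.22e-07 and 6.34e-08). H2-K1 was not called there, at 0.36 (edgeR adjusted p = 0.0567), and H2-Q6 was not tested.

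The largest rise among genes with at least 20 CPM was that of Slc6a20a, an amino acid transporter, from 10.8 and 8.36 CPM in young to 50.2 and 45.1 in old tables, at 2.35 ± 0.26 (edgeR adjusted p = 5.44e-08). Macc1 rose from 28.1 ± 2.18 to 65.5 ± 2.82 CPM (SD, n = 2 each). Chia1, the acidic mammalian chitinase that AE2 cells secrete, was at 266 and 252 CPM in young and 466 and 653 in old tables (1.12 ± 0.12, edgeR adjusted p = 1.78e-05). Bmp1, a procollagen protease, rose from 102 ± 3.93 to 194 ± 14 CPM, and Bex2 from 368 ± 98.9 to 669 ± 22.8. Bmp1, Plin2, Nfkbia, Socs3, Icam1, Ager, Emp2 and Retnla are named after their values were seen. Of 11 xenobiotic metabolism genes, Cyp2b10, Cyp2f2 and Fmo2 rose, by 0.74, 0.79 and 1.99 on the log2 scale, and none fell. The list median was 0.09 beside 0.00 over all genes, of which 0.357% rose. At the cut of 10, Cyp2b10 and Cyp2f2 were not called, at 0.82 and 0.71 (edgeR adjusted p = 0.0558 and 0.117). Fmo2 was called there, at 1.92 (edgeR adjusted p = 0.0017).

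Among the genes that fell, Sftpd, the collectin surfactant protein D that binds microbes, had the highest level. It was at 5710 and 6580 CPM in young and 4240 and 4650 in old tables, a log2 fold change of -0.47 ± 0.09 (edgeR adjusted p = 0.000692). Acot1, an acyl-CoA thioesterase, went from 282 and 314 to 163 and 166 CPM (-0.87 ± 0.10, edgeR adjusted p = 9.69e-08), and Plin2, the lipid droplet coat protein, from 195 ± 4.54 to 107 ± 18.4 CPM. Acot1 was the 1 called of 25 fatty acid and phospholipid synthesis genes, with a list median of -0.03, while 0.571% of all genes fell. The chaperones of the endoplasmic reticulum Hsp90b1 and Pdia6 fell by 0.39 and 0.44 on the log2 scale. They were the 2 called of 37 secretory pathway genes, with a list median of -0.07.

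Heat shock genes moved in both directions. Of 21 immediate-early and heat shock genes, Hspb1 (109 and 112 CPM in young, 52.7 and 45.7 in old tables) and Zfp36 fell, and Hspa8 and Dnaja1 rose. The list median was -0.05, and over all genes 0.571% fell and 0.357% rose. Nfkbia, the inhibitor of NF-kappaB, fell by 0.79 on the log2 scale and Socs3, an inhibitor of cytokine signalling, by 0.85 (edgeR adjusted p = 0.000692 and 0.000786). Zfp36, which destabilises cytokine mRNAs, fell by 0.49 and the adhesion molecule Icam1 by 0.52 (edgeR adjusted p = 0.0197 and 0.00213). At the cut of 10, Zfp36 and Icam1 were not called, at -0.19 and -0.46 (edgeR adjusted p = 0.834 and 0.0564). Nfkbia and Socs3 were called there, at -0.73 and -0.91 (edgeR adjusted p = 0.0139 and 0.00431). Tspan8, a tetraspanin, fell from 84.4 and 75.3 to 30.9 and 34.4 CPM, Pim1, a serine/threonine kinase, from 72.8 and 85.6 to 35.4 and 39.8, and Itga6, the integrin alpha 6 chain, from 35 and 27.5 to 8.36 and 9.5.

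Markers of other cell types moved with age as well. Over all genes 0.571% fell and 0.357% rose. Of 7 AE1 markers tested, Ager and Emp2 were lower in old mice. At the cut of 10 Emp2 was called again, at -0.49, and Ager was not, at -0.32 (edgeR adjusted p = 0.0373 and 0.164). The 13 AE1 markers summed to 1940 and 1850 CPM in Lyz1-high cells of young and 1560 and 1720 of old tables. Of 8 club and secretory markers tested, Cyp2f2 was higher and Retnla lower, and the 10 markers summed to 4530 and 3820 CPM in young and 7780 and 5200 in old tables. The part of either in the age result was not tested.

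**Figure D5:**
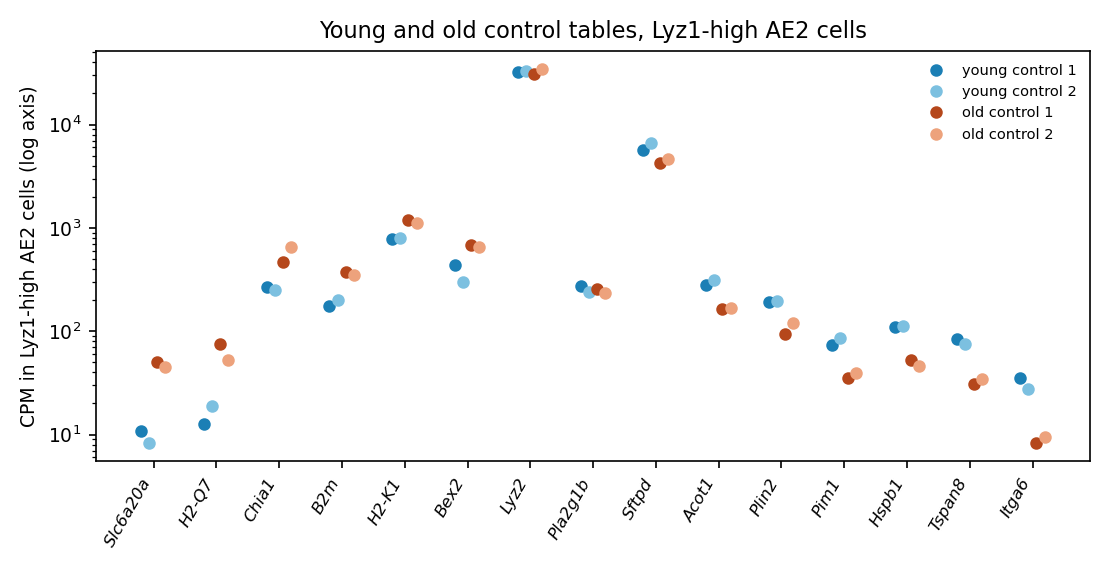
CPM of 15 genes in Lyz1-high AE2 cells on a log axis, 1 point per control table. For each of the genes from Slc6a20a to Bex2 both old tables lie above both young tables, for Sftpd to Itga6 both lie below, and Lyz2 and Pla2g1b overlap between the ages.

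Whether the difference between Lyz1-high and other AE2 cells depends on age was tested as an interaction, which called 2 of 9291 genes (0.0215%), Top2a and Cdc20, by edgeR's quasi-likelihood test (416 at an unadjusted p under 0.05). For Lyz2 the interaction was 0.13 ± 0.03, with within-table log2 ratios of -0.36 and -0.38 in young and -0.25 and -0.22 in old tables, and it did not pass the adjustment (edgeR adjusted p = 0.489). Within Lyz1-high cells, 0.571% of all genes tested for age fell in old mice. Of 12 cell cycle genes tested there, Top2a, Mki67, Cdk1 and Tubb5 fell and none rose, with a list median of -0.69. Except for Tubb5, these values rest on a handful of dividing cells, since Top2a UMIs were found in 4 of 200 and 3 of 320 Lyz1-high cells of young tables and in 0 of 254 and 1 of 239 of old tables.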

How the data were processed

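Single-cell RNA of EpCAM-sorted lung cells was deposited by the authors as raw UMI counts per gene and barcode, 1 table per hashed group and lane, with no normalization. Tools named in the submitters' processing notes are bcl2fastq, Cell Ranger 3.1.0 and STAR, with R 3.6.3, Seurat (3.1, 3.1.5) and build mm10, without their roles; the assignment of hashtags is not given in the sources used here. Gene IDs were matched to GENCODE M21 (30934 of 31053). AE2 cells and the quartile of Lyz1 were taken by the rule stated above; the depth per Lyz1-high sum was 1133125 to 2035924 UMIs.

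UMIs were summed per table and class without Lyz1, filtered with filterByExpr, scaled with TMM (factors 0.964 to 1.03) and tested in edgeR 4.0.16 (R 4.3.3), robust quasi-likelihood, with the table as block for the class and no block for age. SE was approximated by dividing the size of a log2 fold change by the root of its F statistic. DESeq2 1.42.0 was an alternative. P-values were adjusted by Benjamini-Hochberg over each whole gene table, with a threshold of 0.05. Lane numbers come from the labels and pair tables of the same replicate experiment, loaded together; deviations from the age means in Lyz1-high cells correlated at 0.07 between the tables of a lane (4522 genes). Old and young shares were compared by exact permutation over tables. The fits were checked on simulated data. No doublets were called and free RNA was not removed. Since 68.0% of cells had no Lyz1, pooled quartiles of Lyz1 could not be formed, and levels are given by bands. Named genes were the called genes with the largest change and at least 20 CPM, the called members of each list (or the most abundant) and the smallest interaction p-values. The members, lists and markers were chosen with earlier results of these data known, and the cut at 10 per 10000 after the distribution was seen. RefSeq and GENCODE gave sequences and positions. Other alternatives are given in the closing section.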

Additional observations from a re-analysis of the deposited data

Results flagged for a closer look

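The effect of the Lyz1 class differed between old and young mice for 2 genes, Top2a, a DNA topoisomerase of dividing cells, and Cdc20, a regulator of mitosis. The difference of the log2 fold changes, old minus young, was -10.60 ± 1.03 for Top2a (edgeR adjusted p = 2.45e-08) and -3.0 ± 0.5 for Cdc20 (edgeR adjusted p = 0.00279). Top2a CPM in Lyz1-high cells was 20.7 and 9.35 in the young control tables (lane 1, then lane 2), and 0 and 0.594 in the old ones. Its UMIs numbered 23 and 19 in Lyz1-high cells of young tables and 0 and 1 in those of old tables, against 1 and 0 in the other AE2 cells of young and 31 and 38 in those of old tables. They came from few cells: 4 and 3 Lyz1-high cells in young tables, and 3 and 5 other cells in old tables. In young control 1 a single Lyz1-high cell held 19 of the 23 (82.6%), and in old control 1 a single other cell held 28 of the 31 (90.3%). The fitted value of Top2a depends on these counts near 0 and is no bound. Cdc20 UMIs numbered 21 and 26 in 7 and 7 Lyz1-high cells of young tables, and 5 and 6 in 5 and 6 Lyz1-high cells of old tables. In the other AE2 cells they numbered 14 and 29 in young and 35 and 70 in old tables. Single cells weigh here as well: 1 Lyz1-high cell held 15 of the 21 (71.4%) in young control 1 and 1 held 10 of the 26 (38.5%) in young control 2, and 1 other cell held 17 of the 35 (48.6%) in old control 1 and 1 held 21 of the 70 (30.0%) in old control 2. Groups held 2 tables each, so single tables were not tested for standing apart.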

How the results depend on the processing

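The alternatives changed the number of called genes more than the direction of Lyz2. For Lyz1-high against other AE2 cells, the 4 calls became 0 with no replicate block, 1 with DESeq2, 10 without a filter on low counts, 2 in cells thinned to 2000 UMIs, 7 with the quartile taken within bins of depth and 2 without the 5% deepest cells; leaving out each table gave 4 to 6. At least 10 per 10000, a cut chosen after seeing the data, gave 2 when thinned, 2 with DESeq2, 1 with no replicate block and 3 to 7 with a table left out. Both classes of a table come from the same mice, so the table pairs them. For old against young within Lyz1-high cells, the 78 calls became 139 with lane as a replicate block, which the lane number of the labels gives, 14 with DESeq2 and 8 to 106 with a table left out. The interaction gave 8 with DESeq2, 29 without a filter and 4 to 16 with a table left out, against 2. After LPS, the 1 call became 0 with no replicate block, 0 with the control threshold, 2 with the cut at 10 and 2 to 6 with a table left out; with a table left out, Lyz2 kept its call in 1 of 4 fits. The cause of each was not tested.

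Shares with the top 10% as the cut were 11.04% (young control 1), 12.83% (young control 2), 7.808% (old control 1) and 8.47% (old control 2). With any Lyz1 UMI they were 31.63%, 35.17%, 27.85% and 33.06%, and with the cut at 10 they were 14.8%, 16.49%, 11.1% and 10.93%. The median of Lyz1 was 0, so any UMI stands for the planned cut at the median. Old minus young stayed negative in these and in 3 further settings. Lrg1 turned to 0.02 with any UMI and to 0.00 when thinned. Pla2g1b, not called, turned to -0.04 with the top 10% and -0.02 when thinned, and ran from -0.01 to 0.12 over the tables left out with the quartile and from -0.07 to 0.05 with the cut at 10. Among named genes in old against young, no alternative turned a sign; 97 of 271 values lost their call. A table left out leaves 1 lone table in its group, which is assumed to vary like the others. Depth limits what 1 or 2 Lyz1 UMIs in a cell can show, and 2 tables per age limit every age result.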
